A study of Homo sapiens with 12 samples.

Results

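Transcript levels of 9 genes that make, move, sense and break down prostaglandins were examined in MCF10A, an established human line of untransformed breast epithelial cells. The genes were PTGS1, PTGS2, PTGES, PTGES2, PTGES3, PTGER4, SLCO2A1, ABCC4 and HPGD. Every probe whose symbol in the array annotation was one of these 9 was taken, which gave 13 of 47323 array probes. Of these 13 probes, 11 passed the filter on detection, for 8 of the 9 genes, and both probes of PTGS1 did not. The genes were chosen with results of these data in view, so their levels and differences are given as a description. Counts of members past a test's threshold are given only beside the same share over all probes, and support nothing.

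All cells were of the MCF10A line, kept in serum-containing medium, and all carried a vector. VEC cells held the control vector. CYT1 and CYT2 cells stably expressed the corresponding form of the intracellular domain (ICD) of the JM-a type of ERBB4. ERBB4 is a growth factor receptor of the EGFR family, and its ICD is the cytoplasmic end that proteases release and that can reach the nucleus. CYT1 carries a segment to which phosphoinositide kinases can bind, and CYT2 does not. The vector's promoter, and whether a line was 1 clone or a pool, were not stated, so a difference between lines is a difference between these cell populations. Each group had 2 biological replicates with 2 technical arrays each, 12 Illumina bead arrays in all.

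Prostaglandins are short-lived lipid signals made from arachidonic acid that phospholipases free from membranes. The cyclooxygenases PTGS1 and PTGS2 make the shared precursor, terminal synthases such as PTGES turn it into prostaglandin E, and cells export it, in part through ABCC4. Outside, it acts on G-protein-coupled receptors, and it ends when SLCO2A1 carries it back into a cell and HPGD oxidises it. In mammary epithelium PTGS2 is known as an inducible enzyme often raised in tumours, and HPGD as its opposing catabolic enzyme.

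Between 37.0% and 39.6% of the array's probes were detected on an array, that is, had a detection p-value under 0.05. Values below are log2 of the background-corrected, quantile-normalised signal, and levels are set against each other only within a probe. A probe is called changed where limma's p-value, adjusted over all 17356 probes that passed the filter, was under 0.05. Called probes made up 35.9% of these between CYT1 and VEC, 30.4% between CYT2 and VEC and 0.472% between CYT2 and CYT1. Of those calls, 46.5%, 48.5% and 42.7% were higher in the group named first, against 33.1%, 34.9% and 65.8% after median scaling of uncorrected signals and 31.3%, 31.2% and 61.5% in the deposited log2 values. Arrays of a group that shared a technical number lay closer to each other (0.31 root mean square log2 distance) than arrays that shared a biological number (0.322), so it is not settled which number marks separate samples. Nothing in the labels says that replicates came from separate cultures, and p-values measure the spread between these samples, which may be technical. All 6 epithelial markers with an annotated probe, among them KRT5, KRT14, CDH1 and EPCAM, were detected on 12 of 12 arrays. Their levels moved with the ICD as well, and limma called 5 of the 6 changed in each line, beside 39.3% and 33.6% of all genes. In CYT1, KRT14 (1.60) and KRT5 (1.08) rose and CDH1 (-0.63), EPCAM (-0.80) and KRT18 (-0.61) fell, and in CYT2, KRT14 (0.51), KRT5 (0.95) and KRT8 (1.01) rose and CDH1 (-0.42) and KRT18 (-0.43) fell. The part of these shifts in the levels below was not tested. In bulk RNA, fewer cells with a transcript and less of it per cell cannot be told apart.

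The cyclooxygenase and prostaglandin E synthase probes that passed the filter had lower means in ICD cells than in VEC, by up to 0.63 on the log2 scale. PTGS2, the inducible cyclooxygenase, had 2 probes. On the first, the 4 VEC arrays read 10.24, 10.09, 10.39 and 10.14, the CYT1 arrays 9.88, 9.81, 9.82 and 10.02, and the CYT2 arrays 10.19, 10.01, 9.99 and 10.10. Every CYT1 array lay below every VEC array, whereas the CYT2 arrays reached into the VEC range. The second probe read 9.12, 8.49, 8.65 and 8.79 in VEC, 8.37, 8.11, 8.38 and 8.37 in CYT1, and 8.42, 8.72, 8.56 and 8.35 in CYT2, with the same order. CYT1 minus VEC was -0.33 ± 0.09 (SE, n = 2 biological replicates a group, as for all differences below) on the first probe and -0.45 ± 0.10 on the second. CYT2 minus VEC was -0.14 ± 0.09 and -0.25 ± 0.10. Between the forms, CYT2 minus CYT1 was 0.19 (95% interval -0.02 to 0.40) and 0.21 (-0.03 to 0.44), so both intervals span 0. With technical arrays 2 alone, the first probe's CYT1 difference was -0.20.

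PTGS1, the constitutive cyclooxygenase, was near background. Each of its 2 probes was detected on 2 of 12 arrays, all of them VEC arrays, and on 0 of 8 ICD arrays. Their uncorrected signals spanned 128 to 179 and 121 to 162, so no fold is given.

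PTGES, the membrane-bound synthase that works with PTGS2, read 11.73, 11.79, 11.96 and 11.85 in VEC, 11.65, 11.64, 11.96 and 11.79 in CYT1, and 11.68, 11.53, 11.64 and 11.67 in CYT2. The CYT1 arrays overlapped the VEC arrays and the CYT2 arrays all lay just below them. The differences were small, at -0.07 ± 0.11 for CYT1 and -0.20 ± 0.11 for CYT2.

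PTGES2, a second membrane-associated prostaglandin E synthase, was lower in both ICD lines on both of its probes. Its first probe read 10.23, 10.19, 10.45 and 10.19 in VEC, 9.98, 9.92, 9.80 and 9.69 in CYT1, and 9.93, 9.69, 9.93 and 9.95 in CYT2. Its second read 9.70, 9.71, 9.66 and 9.97 in VEC, 9.07, 9.22, 9.10 and 9.11 in CYT1, and 9.22, 9.41, 9.34 and 9.36 in CYT2. On neither probe did any ICD array reach the VEC arrays. The differences from VEC were -0.42 ± 0.11 and -0.63 ± 0.08 in CYT1, and -0.39 ± 0.11 and -0.43 ± 0.08 in CYT2. The ICD lines overlapped each other on both probes, on the second by 1 array only, with a CYT2 minus CYT1 difference there of 0.21 (95% interval 0.00 to 0.41).

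PTGES3, a cytosolic synthase better known as the p23 co-chaperone of HSP90, read 10.48, 10.64, 10.58 and 10.64 in VEC, 10.02, 10.37, 10.37 and 10.40 in CYT1, and 10.23, 10.75, 10.43 and 10.56 in CYT2. The CYT1 arrays lay below the VEC arrays and the CYT2 arrays straddled them. The differences were -0.30 ± 0.10 for CYT1 and -0.09 ± 0.10 for CYT2.

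**Figure D1:**
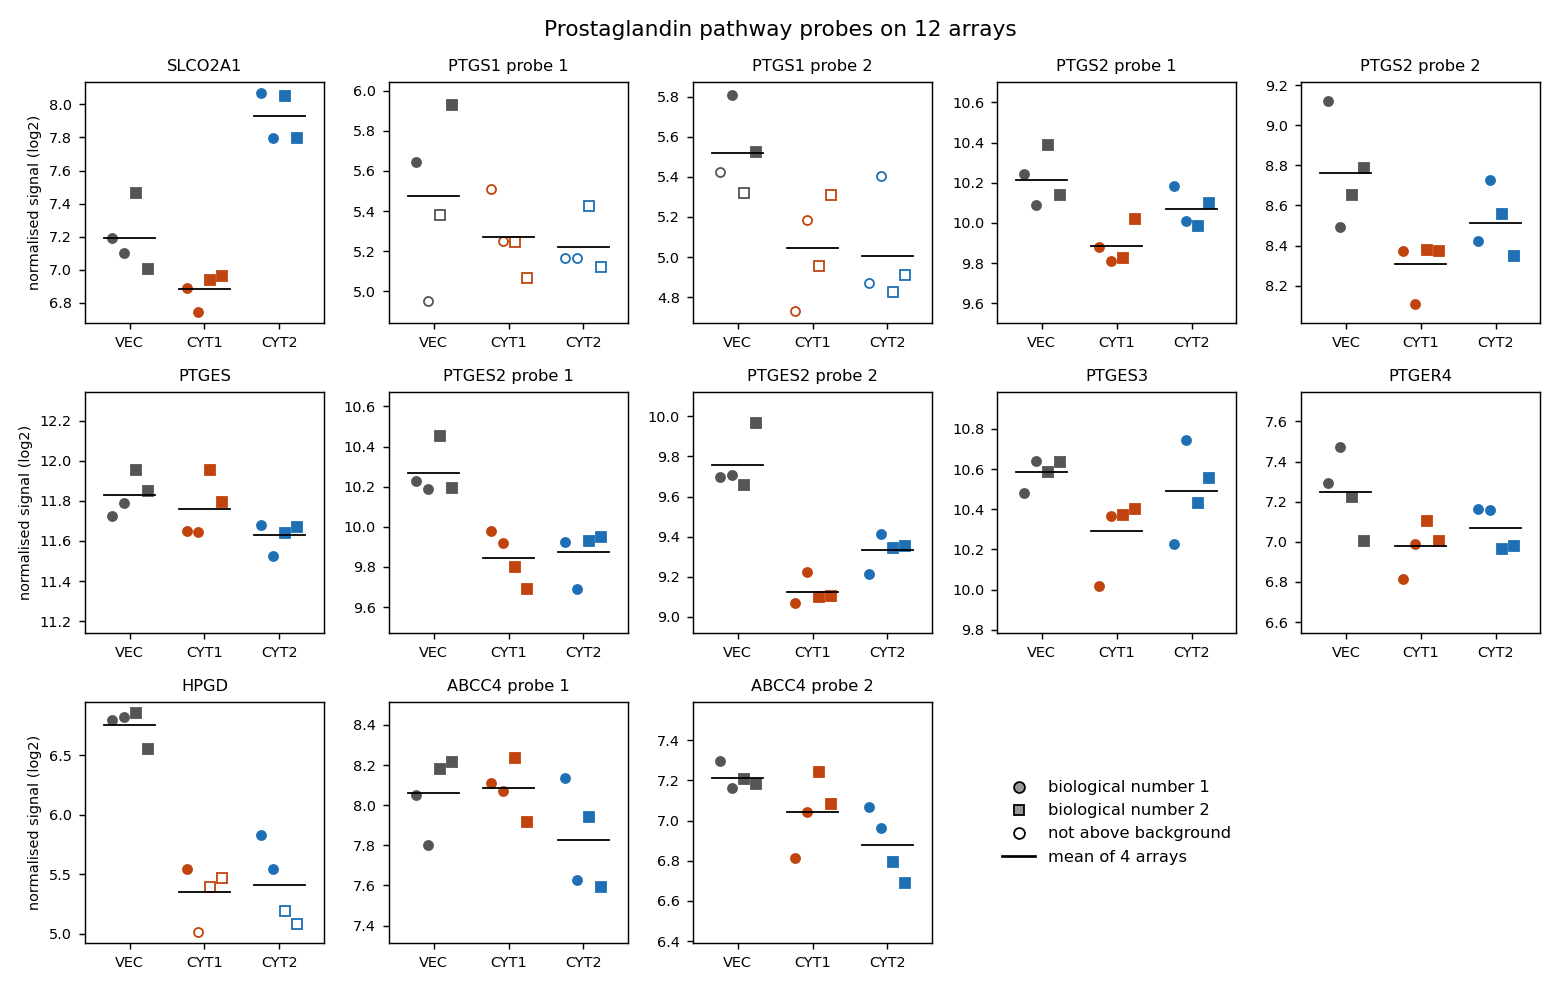
Normalised log2 signal of member probes on each of the 12 arrays, by group, with 1 point per array and a bar at the group mean. SLCO2A1 sits highest in CYT2 (7.79 to 8.07) and lowest in CYT1 (6.74 to 6.96), while HPGD is lower in both ICD lines (5.01 to 5.83) than in VEC (6.55 to 6.85).

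The uptake carrier SLCO2A1 was the member that separated the ICD forms. It takes prostaglandins into the cell ahead of oxidation. It read 7.19, 7.10, 7.46 and 7.01 on the VEC arrays, 6.89, 6.74, 6.94 and 6.96 on the CYT1 arrays, and 8.07, 7.79, 8.05 and 7.80 on the CYT2 arrays. All 4 CYT2 arrays lay above all VEC arrays and all 4 CYT1 arrays below them, and the gap between the highest CYT1 and the lowest VEC array was small (6.96 against 7.01). CYT2 was 1.67-fold above VEC (0.74 ± 0.09 on the log2 scale) and 2.06-fold above CYT1 (1.04 ± 0.09, 95% interval 0.83 to 1.26). CYT1 minus VEC was -0.31 ± 0.09, a change of -19.2% in signal. The probe was detected on 12 of 12 arrays.

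Over 17 alternative settings the CYT2 difference of SLCO2A1 from VEC ranged from 0.42 to 0.78, its CYT1 difference from -0.41 to -0.17, and its CYT2 minus CYT1 difference from 0.61 to 1.14. The CYT1 difference from VEC and the difference between the forms did not pass the threshold when any 1 biological replicate was left out. The pattern of all CYT1 arrays below and all CYT2 arrays above all VEC arrays was held by 11 probes of the 17356 (0.0634%). The other annotated ones were CDT1, CGN, FBXL18, LRR1, MCM8, RHOG, RPA3, SEC14L1 and SNRNP25. SLCO2A1 was the 1 probe (0.00576%) called lower in CYT1 and higher in CYT2. Both shares of all probes describe a pattern for which the gene was chosen. Its CYT1 call held in 2 of the 17 alternative settings, its CYT2 call in all 17 and its call between the forms in 5.

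ABCC4, an export pump for prostaglandins and cyclic nucleotides, differed little from VEC. Its first probe read 8.05, 7.80, 8.18 and 8.21 in VEC, 8.11, 8.07, 8.24 and 7.92 in CYT1, and 8.14, 7.63, 7.94 and 7.59 in CYT2, with all groups overlapping. Its second read 7.29, 7.16, 7.21 and 7.18 in VEC, 6.81, 7.04, 7.24 and 7.08 in CYT1, and 7.07, 6.96, 6.79 and 6.69 in CYT2, with CYT2 below VEC on every array. The CYT1 differences were 0.02 ± 0.11 and -0.17 ± 0.13, the CYT2 differences -0.24 ± 0.11 and -0.33 ± 0.13. The first probe's CYT1 difference kept its sign in 13 of 17 alternative settings.

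HPGD, the dehydrogenase that inactivates prostaglandin E by oxidation, was lower in both ICD lines, with the largest difference from VEC among the member probes after background correction. In the deposited log2 values, which are not corrected, its CYT1 difference was -0.57, beside -0.68 for the second PTGES2 probe. It read 6.80, 6.82, 6.85 and 6.55 on the VEC arrays, 5.54, 5.01, 5.39 and 5.47 on the CYT1 arrays, and 5.83, 5.55, 5.19 and 5.08 on the CYT2 arrays. Every ICD array lay below every VEC array, and the ICD lines overlapped each other. HPGD was detected on 4 of 4 VEC arrays, 1 of 4 CYT1 arrays and 2 of 4 CYT2 arrays, so the ICD levels lay at the edge of background and the size of the difference is uncertain. It passed the filter only because of the VEC arrays, so it could hardly have been called higher in an ICD line. The fitted difference was -1.40 ± 0.18 in CYT1 and -1.35 ± 0.18 in CYT2. CYT2 minus CYT1 was 0.06 (95% interval -0.39 to 0.50), an interval that holds differences of either sign.

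The size of the HPGD differences depended on how background was handled. They ranged from -1.48 to -0.55 in CYT1 and from -1.62 to -0.54 in CYT2, and the smallest values came from scalings without background correction. An offset of 50 in place of 16 gave -0.92 and -0.89.

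PTGER4, the EP4 receptor that couples prostaglandin E to cyclic AMP, read 7.29, 7.47, 7.22 and 7.00 in VEC, 6.82, 6.99, 7.10 and 7.01 in CYT1, and 7.16, 7.16, 6.97 and 6.98 in CYT2. Both ICD lines overlapped VEC. The differences were -0.27 ± 0.13 in CYT1 and -0.18 ± 0.13 in CYT2.

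**Figure D2:**
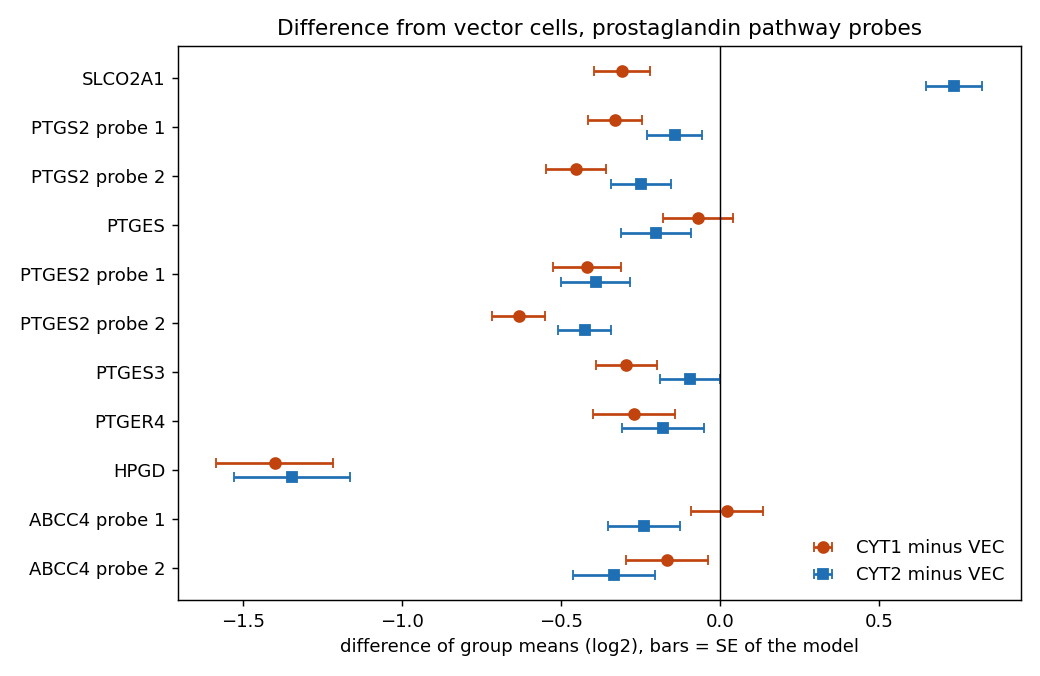
Log2 difference from VEC of each member probe that passed the filter, for CYT1 and CYT2, with bars of 1 SE from the limma model (n = 2 biological replicates a group). HPGD lies furthest below 0 in both lines (-1.40 and -1.35), and SLCO2A1 is at -0.31 in CYT1 and 0.74 in CYT2.

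Counted over the 11 member probes that passed the filter, 6 were called lower in CYT1 and 0 higher, where 35.9% of all probes were called and 19.2% were called lower. At an unadjusted limma p-value under 0.05, 7 were lower and 0 higher, beside 4486 and 3599 of all 17356 probes. In CYT2, 3 were called lower and 1 higher, beside 15.6% and 14.7% of all probes. Between CYT2 and CYT1, 1 was called higher and 0 lower, beside 0.202% and 0.271% of all probes. There, 2 were higher and 0 lower at an unadjusted limma p-value under 0.05, beside 1614 and 1415 of all 17356 probes. Since the members were chosen on these contrasts, nothing is read from these counts. The median member difference was -0.31 in CYT1 and -0.24 in CYT2, beside -0.04 and -0.05 over all probes. The CYT1 count rests on few samples. It was 2 without VEC replicate 1, 3 without VEC replicate 2 and 3 without CYT1 replicate 1. The CYT2 count of 4 was 2 without VEC replicate 2 or either CYT2 replicate. Averaged by technical number, the calls were 4 in CYT1, 4 in CYT2 and 0 between the forms.

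The arrays of 7 member probes lay wholly below VEC in CYT1, from SLCO2A1, PTGS2, PTGES2, PTGES3 and HPGD, beside 20.2% of all probes, and 0 lay wholly above, beside 17%. In CYT2 the 5 such probes came from PTGES, PTGES2, HPGD and ABCC4, beside 18.7%. SLCO2A1 was the 1 member probe wholly above VEC in CYT2, beside 15.7%, and the 1 wholly above CYT1 in CYT2, beside 6.11%. PTGES2 and HPGD thus lay below VEC on all arrays in both lines. PTGS2 and PTGES3 did so in CYT1 and overlapped VEC in CYT2, but their CYT2 minus CYT1 differences were not called. The comparisons of CYT1 and CYT2 with VEC share the VEC arrays.

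The receptor genes outside the members included the largest change in the wider pathway lists. PTGER2, the EP2 receptor, which like EP4 raises cyclic AMP, read 5.27, 5.38, 5.09 and 5.16 on the VEC arrays, 8.36, 8.25, 8.35 and 8.52 on the CYT1 arrays, and 7.79, 7.84, 7.52 and 7.83 on the CYT2 arrays. It was detected on 0 of 4 VEC arrays and on all 8 ICD arrays. For a probe with 0 detected arrays in the dimmer group, the fold is a lower bound, set against the lowest detected signal of each array or the probe's own signal if that was higher. PTGER2 was at least 7.32-fold higher in CYT1 and at least 4.75-fold higher in CYT2. It passed the filter only through the ICD arrays and could not have been called lower, so its calls against VEC are not used. All CYT2 arrays lay below all CYT1 arrays, with a difference of -0.62 ± 0.11 that was not called (limma adjusted p = 0.0748). Without background correction the differences from VEC were smaller, down to 1.56 in CYT1 and 1.15 in CYT2, and they kept their sign in all 17 settings.

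PTGFR, the receptor for prostaglandin F, was also detected on 0 of 4 VEC arrays. It read 5.37, 5.41, 4.79 and 5.21 in VEC, 6.44, 6.64, 6.47 and 6.19 in CYT1, and 6.27, 5.78, 6.02 and 5.97 in CYT2. Every ICD array lay above every VEC array. PTGFR was at least 1.92-fold higher in CYT1 and at least 1.43-fold higher in CYT2. Its calls were made on the fitted differences, not on these bounds, and could not have been lower, so they are not used. The CYT2 call was also lost without CYT2 replicate 1. The differences fell to as low as 0.46 and 0.30 without background correction.

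Of the 9 listed receptor-group genes outside the members, 3 passed the filter. PTGER2 and PTGFR, which rose in both ICD lines, passed it only through the ICD arrays, so they could not have been called lower and no count of receptors is read from them. PTGFRN, a protein that binds the prostaglandin F receptor, differed by -0.04 ± 0.09 in each line and was not called. PTGER3 was detected on 3 CYT1 arrays and 1 CYT2 array. PTGER1, PTGDR, PTGDR2, PTGIR and TBXA2R were detected on 0 of 12 arrays.

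Fibroblast markers moved in the same direction as these receptors. Of 10 such genes, 5 passed the filter, and 4 rose and 0 fell in each ICD line, where 18.6% (CYT1) and 16.1% (CYT2) of all genes rose. These were DCN (5.07 and 4.05), FAP (3.15 and 2.59), COL1A1 (1.51 and 1.01) and POSTN, which was detected on 0 of 4 VEC arrays, while COL1A2 differed by -0.24 and -0.20. Their summed linear signal was 313 to 363 on the VEC arrays, 4694 to 5021 on the CYT1 arrays and 2464 to 2754 on the CYT2 arrays. COL1A1, detected on 1 of 4 VEC arrays, and POSTN passed the filter only through ICD arrays. Both could hardly have been called lower, so the count of rising markers is not read as a result. COL3A1, LUM, PDGFRB and THY1 were detected on 0 of 12 arrays. Of 7 endothelial markers, 0 passed the filter, though PECAM1 was detected on 6 arrays and TEK on 2. Of 7 leukocyte markers with a probe, 3 passed, and CD3E, PTPRC and TYROBP were detected on 0 of 12 arrays. The 3 were CD14 (-0.75 in CYT1 and -0.11 in CYT2), CD68 (-0.34 and -0.72) and CSF1R (0.11 and 0.44). Of 7 luminal breast cancer markers, FOXA1, GATA3 and XBP1 passed. Of 5 platelet and mast cell markers with a probe, PPBP did. The part of these markers in the receptor levels was not tested.

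**Figure D3:**
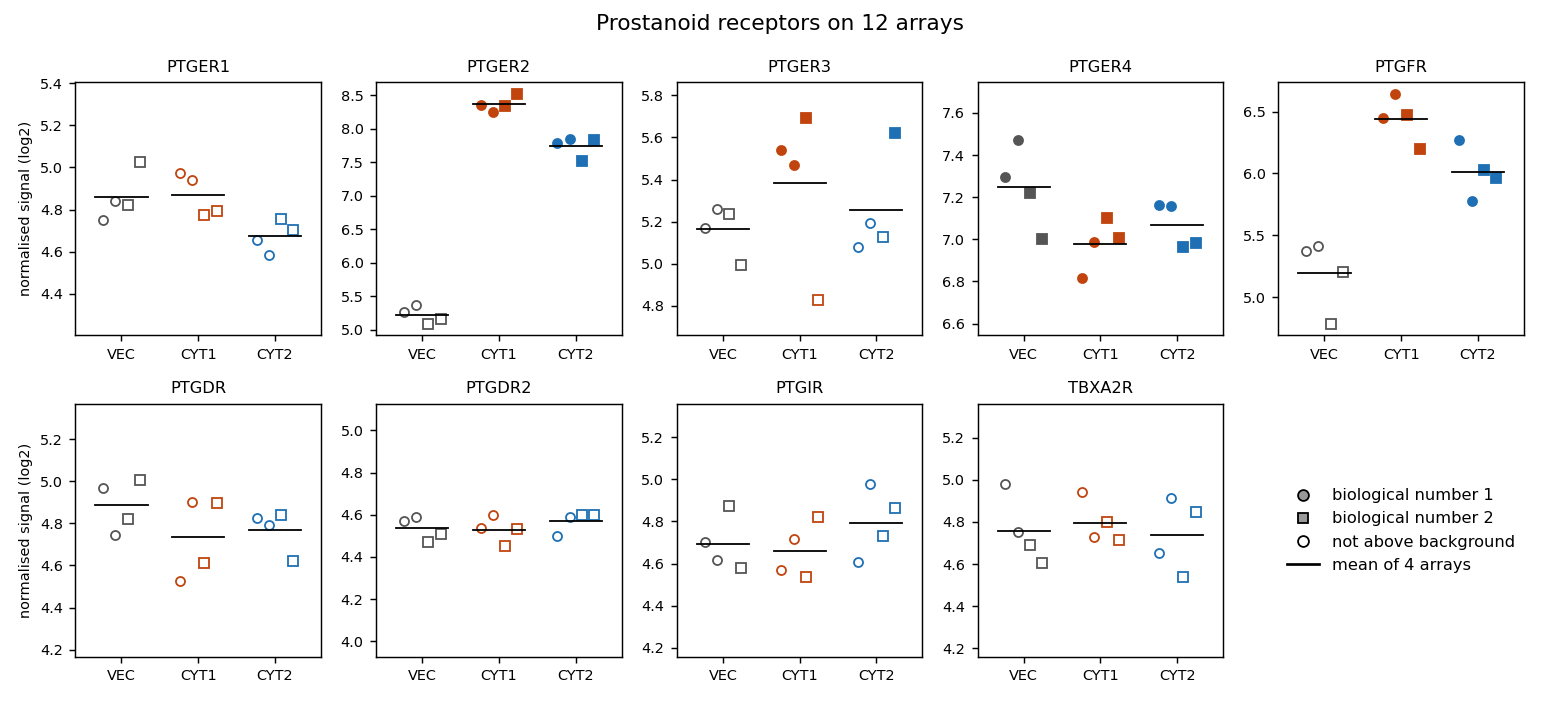
Normalised log2 signal of the prostaglandin receptor genes on each of the 12 arrays, by group, with 1 point per array and a bar at the group mean. PTGER2 lies at 5.09 to 5.38 in VEC, 8.25 to 8.52 in CYT1 and 7.52 to 7.84 in CYT2, and PTGER4 overlaps between the groups.

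The promoters of HPGD, PTGER2 and PTGFR are shown as those of the member with the largest fitted difference from VEC and of the receptors that rose. Each is the 250 bases before the gene's start in RefSeq on GRCh38.p14, 5′ to 3′ on the gene's strand. HPGD lies at chr4:174522489-174522738 on the minus strand, the window nearest the gene body of 2 listed, PTGER2 at chr14:52314062-52314311 on the plus strand and PTGFR at chr1:78490724-78490973 on the plus strand. Capitals mark the Sp1 core GGGCGG on either strand.
HPGD: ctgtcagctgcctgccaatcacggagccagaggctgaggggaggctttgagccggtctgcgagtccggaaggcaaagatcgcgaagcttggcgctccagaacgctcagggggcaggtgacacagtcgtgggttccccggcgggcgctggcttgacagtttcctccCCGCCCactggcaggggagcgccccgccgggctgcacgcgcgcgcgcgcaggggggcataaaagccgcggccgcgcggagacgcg
PTGER2: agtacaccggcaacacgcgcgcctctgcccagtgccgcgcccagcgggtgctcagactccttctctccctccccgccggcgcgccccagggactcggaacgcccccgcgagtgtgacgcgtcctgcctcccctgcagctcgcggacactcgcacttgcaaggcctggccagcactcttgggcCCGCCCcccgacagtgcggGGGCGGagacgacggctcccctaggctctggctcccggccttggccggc
PTGFR: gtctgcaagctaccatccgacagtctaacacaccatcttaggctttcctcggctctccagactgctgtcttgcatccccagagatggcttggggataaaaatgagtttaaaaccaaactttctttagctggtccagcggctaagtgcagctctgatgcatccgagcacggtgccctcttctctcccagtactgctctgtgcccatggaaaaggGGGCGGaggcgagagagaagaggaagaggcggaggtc
The HPGD and PTGFR windows held 1 match each and the PTGER2 window held 2. The same letters stood in 42.6% of 35116 RefSeq promoter windows of this length. Searches on both strands for a TEAD core (GGAATG, in 11.9% of windows), a STAT site (TTCNNNGAA, 6.6%), an AP-1 site (TGANTCA, 6.6%), a cyclic AMP response element (TGACGTCA, 1.6%) and a TATA box (TATAAA, 10.7%) found no match in the 3 windows. A match is a string of letters and does not show a bound site.

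Across 7 lists of 100 other genes of the pathway, 92 had a probe and 57 passed the filter. In CYT1, 14 rose and 13 fell, and in CYT2, 13 rose and 14 fell, beside 39.3% and 33.6% of all genes called in either direction. Over all genes, 18.6% rose and 20.7% fell in CYT1, and 16.1% rose and 17.6% fell in CYT2. Between CYT2 and CYT1, limma called 0 of the 57, beside 0.55% of all genes, and other settings called up to 5. At an unadjusted limma p-value under 0.05, 9 of the 57 were higher and 7 lower, beside 1614 and 1415 of all 17356 probes.

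In the list of prostanoid breakdown and transport, 3 of 8 tested genes rose and 2 fell in each line. Of all genes, 18.6% rose and 20.7% fell in CYT1, and 16.1% rose and 17.6% fell in CYT2, and nothing is read from these counts. ABCC5 counted as not called on its brightest probe (0.10 and 0.19). Its other probe gave 0.74 and 0.66 and was called higher in both lines (limma adjusted p = 0.00632 and 0.0114). PTGR1, a reductase that acts on oxidised prostaglandins and on leukotriene B, rose by 1.48 ± 0.09 in CYT1 (limma adjusted p = 0.000196) and 1.34 ± 0.09 in CYT2 (adjusted p = 0.000337), and its second probe gave 1.62 in both. The aldo-keto reductase AKR1C2 rose by 1.18 ± 0.10 and 1.08 ± 0.10 (limma adjusted p = 0.000648 and 0.00116). The carbonyl reductase CBR3 rose by 0.50 ± 0.11 in CYT1 and 0.98 ± 0.11 in CYT2 (limma adjusted p = 0.0158 and 0.00195), and its CYT1 call was lost when either VEC replicate or CYT1 replicate 1 was left out. SLCO4A1 and SLCO3A1 belong to the same transporter family as SLCO2A1. SLCO4A1 fell by 1.04 ± 0.10 in CYT1 and by 0.59 ± 0.10 in CYT2 (limma adjusted p = 0.00073 and 0.00695). SLCO3A1 fell by 0.60 ± 0.08 in CYT1 (limma adjusted p = 0.00306) and differed by -0.27 ± 0.08 in CYT2 without being called (adjusted p = 0.0506), and its other 2 probes differed there by -0.24, not called, and -0.49, called (adjusted p = 0.0493). Neither transporter's difference between the ICD forms was called (limma adjusted p = 0.101 and 0.135).

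Among 3 tested synthases outside the members, AKR1C3 rose and CBR1 fell in each line. AKR1C3, which makes prostaglandin F, rose by 0.80 ± 0.11 and 0.83 ± 0.11 (limma adjusted p = 0.00309 and 0.00344). AKR1C genes are near-identical in sequence, so their probes may not separate them. CBR1, which turns prostaglandin E into F, fell by 0.69 ± 0.10 in CYT1 and by 0.40 ± 0.10 in CYT2 (limma adjusted p = 0.00359 and 0.0294). The CYT2 call of CBR1 was lost when any VEC or CYT2 replicate was left out. PTGDS, HPGDS and PTGIS, which make prostaglandin D and prostacyclin, were detected on 0 of 12 arrays.

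Of 10 tested genes that supply arachidonate, 3 rose and 3 fell in each line. FADS2, PLA2G12A and the phospholipase PLA2G6 passed the filter only through arrays of the groups where they were higher. Their direction was largely set by the filter, so nothing is read from these counts. FADS1, a desaturase that forms arachidonate, rose by 1.21 ± 0.08 and 1.36 ± 0.08 (limma adjusted p = 0.000292 and 0.000279). MGLL, a lipase that frees arachidonate from monoacylglycerol, fell by 0.84 ± 0.10 in CYT1 and by 0.50 ± 0.10 in CYT2 (limma adjusted p = 0.0022 and 0.0159), and its CYT2 call was lost when any VEC or CYT2 replicate was left out. DAGLB, a diacylglycerol lipase upstream of it, fell by 0.61 ± 0.08 and by 0.40 ± 0.08 (limma adjusted p = 0.00286 and 0.0148), with the CYT2 call lost when VEC replicate 2 or either CYT2 replicate was left out. ACSL4, which couples arachidonate to coenzyme A, rose by 0.58 ± 0.09 and 0.40 ± 0.09 (limma adjusted p = 0.00429 and 0.0188), but its second probe gave -0.22 and -0.13 and was not called. The CYT2 call of ACSL4 was lost when either VEC replicate or CYT2 replicate 2 was left out. The desaturase FADS2, detected on 0 of 4 VEC arrays, was at least 1.32-fold higher in CYT2, a bound that was not itself tested. The secreted phospholipase PLA2G12A, detected on 0 of 4 CYT2 arrays, was at least 1.16-fold lower there. Its call was made on the fitted difference, not on this bound, and was lost without VEC replicate 1 or CYT2 replicate 1. PLA2G4A, the cytosolic phospholipase, was detected on 0 of 12 arrays.

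Of 9 tested leukotriene and lipoxygenase genes, 2 rose and 1 fell in CYT1, and 1 rose and 1 fell in CYT2. Of all genes, 18.6% rose and 20.7% fell in CYT1, and 16.1% rose and 17.6% fell in CYT2. ALOX5AP, which presents arachidonate to a lipoxygenase, rose by 1.28 ± 0.08 and 1.24 ± 0.08 (limma adjusted p = 0.000226 and 0.000334). The lipoxygenase ALOX5 was detected on 1 array of each group and did not pass the filter, and LTC4S was detected on 0 arrays. The calls of ALOX15B (0.56 ± 0.16 in CYT1) and ALOXE3 (-0.89 ± 0.23 in CYT1 and -0.77 ± 0.23 in CYT2) were lost when single replicates were left out.

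In the cyclic AMP pathway that EP receptors use, 2 of 14 tested genes rose and 5 fell in CYT1, and 2 rose and 6 fell in CYT2. Of all genes, 18.6% rose and 20.7% fell in CYT1, and 16.1% rose and 17.6% fell in CYT2. Nothing is read from the counts of this list. PRKACB, a catalytic subunit of protein kinase A, fell by 0.71 ± 0.08 and by 0.45 ± 0.08 (limma adjusted p = 0.00157 and 0.00955), but its other probe gave -0.10 and -0.38 and was not called. The CYT2 call of PRKACB was lost without VEC replicate 1 or CYT2 replicate 2. It was also lost after quantile or median scaling of uncorrected signals and in the deposited log2 values. The adenylyl cyclase ADCY7 fell by 0.91 ± 0.21 and by 0.95 ± 0.21 (limma adjusted p = 0.0177 and 0.0179), and both calls were lost when either VEC replicate was left out. Its CYT2 call was also lost when either CYT2 replicate was left out. CREB1, the transcription factor that protein kinase A activates, rose by 0.93 ± 0.08 and 0.89 ± 0.08 on its brightest probe (limma adjusted p = 0.000658 and 0.00104). A further CREB1 probe was also called higher in both lines. Another gave -0.13 in CYT1, not called, and -0.37 in CYT2, where it was called lower (limma adjusted p = 0.0172). CREB1 probes were thus called in opposite directions in CYT2, and the counts above use the brightest probe only. ARRB1, which desensitises receptors, rose by 0.84 ± 0.13 and 1.01 ± 0.13 (limma adjusted p = 0.00519 and 0.00348), and its other probe gave 0.11 and 0.27 and was not called. The ARRB1 probe that rose was detected on 2 of 4 VEC arrays and passed the filter through the ICD arrays. PRKAR2A, a regulatory subunit of protein kinase A, fell by 0.65 ± 0.17 and by 0.58 ± 0.17 (limma adjusted p = 0.0267 and 0.0441), and its CYT1 call was lost when any VEC or CYT1 replicate was left out, and its CYT2 call when any replicate but CYT2 replicate 1 was.

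Of 10 tested regulators of PTGS2, PTGES or HPGD, 1 rose and 1 fell in each line. Of all genes, 18.6% rose and 20.7% fell in CYT1, and 16.1% rose and 17.6% fell in CYT2. HIF1A, the hypoxia-inducible factor, rose by 0.50 ± 0.09 in CYT1 (limma adjusted p = 0.00932) and 0.43 ± 0.09 in CYT2 (adjusted p = 0.0187), and both calls were lost without VEC replicate 1. The CYT2 call was also lost when either CYT2 replicate was left out. Its other 2 probes gave 0.25 and 0.13 in CYT2 and were not called there, and 1 of them, at 0.41, was not called in CYT1. PPARG, a lipid-sensing nuclear receptor, fell by 0.28 ± 0.09 in CYT1 (limma adjusted p = 0.0463), a call lost when any replicate was left out. SNAI2, a transcription factor of the Snail family, fell by 0.60 ± 0.08 in CYT2 (limma adjusted p = 0.0036) and differed by -0.16 ± 0.08 in CYT1.

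**Figure D4:**
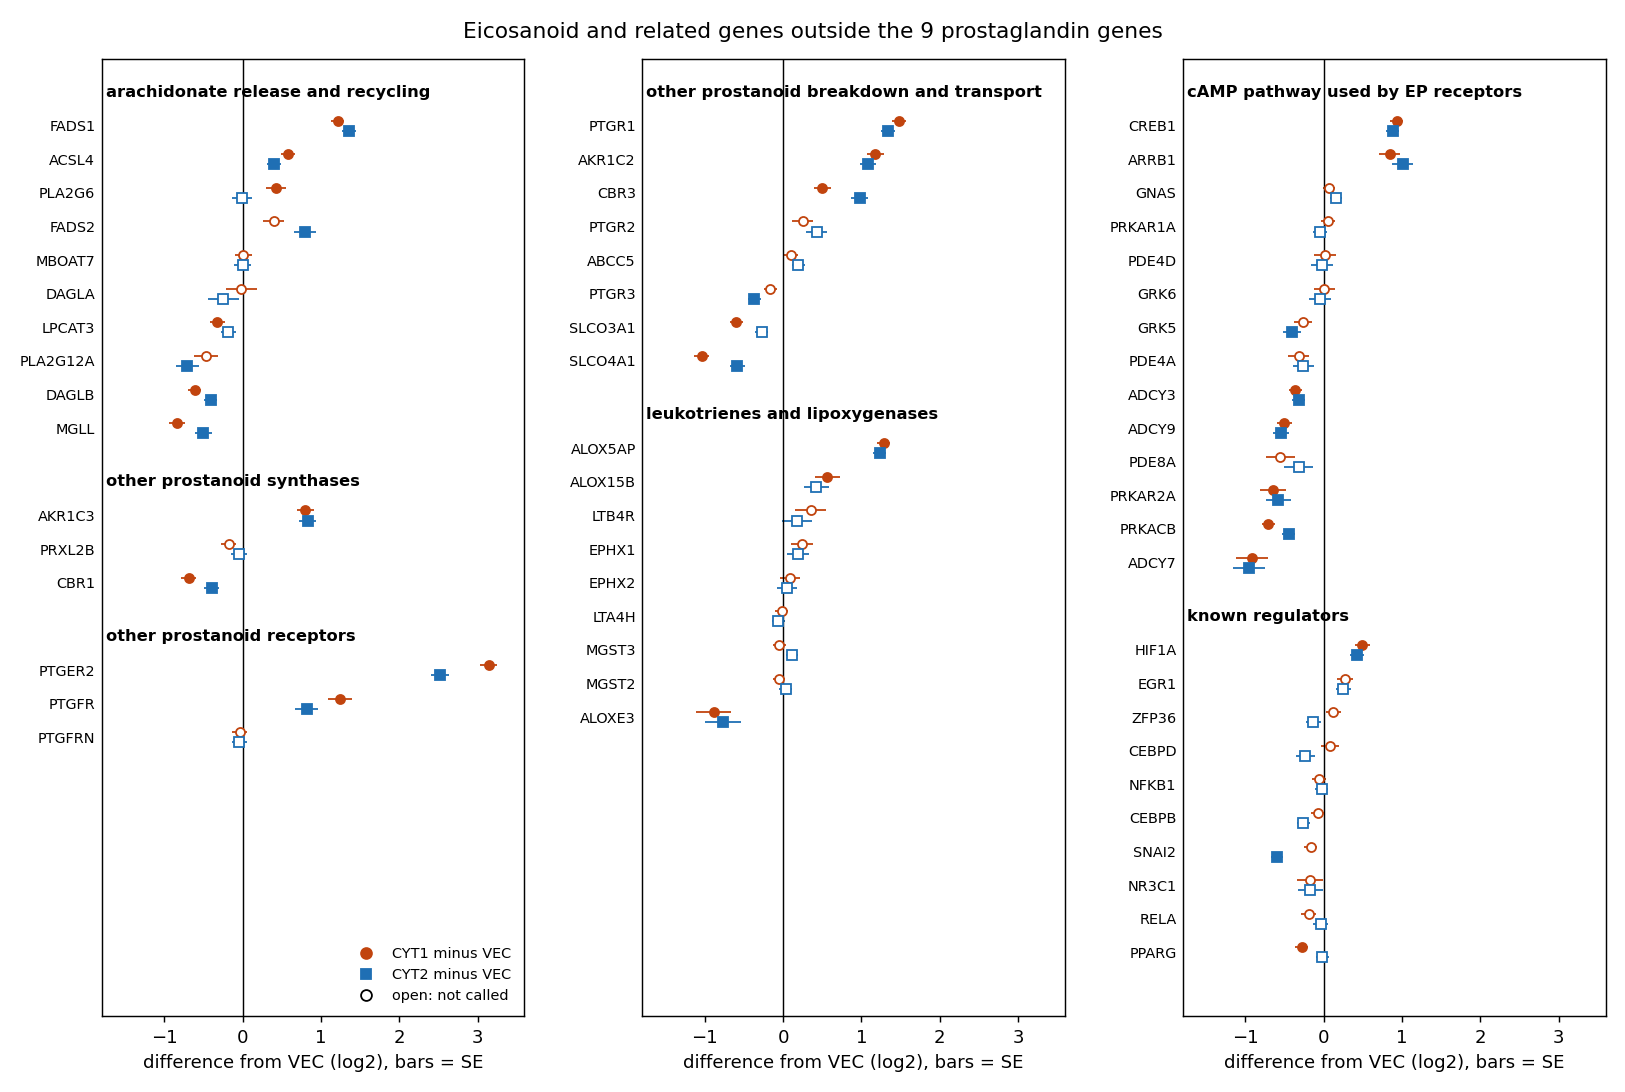
Log2 difference from VEC, in CYT1 and in CYT2, of pathway genes outside the members, with 1 SE from the limma model (n = 2 biological replicates a group). PTGER2 lies furthest to the right (3.14 and 2.52, fitted values), and SLCO4A1 is among the genes furthest to the left (-1.04 and -0.59).

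The genes most like HPGD and SLCO2A1 were sought among 10288 other genes, by the root mean square distance of their centred log2 levels over the 6 biological replicates. The nearest to HPGD were RASL11B (0.132), MYBBP1A (0.143), SULT2B1 (0.147), SPRY2 (0.156) and P3H2 (0.157). The nearest to SLCO2A1 were E2F2 (0.158), LINC01479 (0.165), PKIB (0.177), LMNB1 (0.178) and RETREG1 (0.204). Of these 5, E2F2, LMNB1 and RETREG1 lay at 0.07, 0.08 and 0.11 above VEC in CYT1, and PKIB and LINC01479 at -0.25 and -0.07. The rule asked for the member probe with the largest rise in CYT1, which was the first ABCC4 probe at 0.02, not called. SLCO2A1 was taken in its place, after its values were seen.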

How the data were processed

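RNA was labelled as biotinylated cRNA, per the labels' protocols. The authors deposited a mean bead intensity for each probe on each array, uncorrected and unscaled judging from the values, with a detection p-value that moves in steps of 1 in 770. Another deposited table gives log2 of the same intensities. Scanner software is not given in the sources used here. Signal columns name the group but not the sample, so detection p-values were joined to samples by equality of these values (largest difference 5e-09, next best column 0.829 or more).

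Intensities were corrected, offset by 16, quantile-normalised and logged with neqc in limma 3.58.1 (R 4.3.3). Probes were kept if detected (p under 0.05) in at least 2 of 6 biological replicates, on both technical arrays of each. Technical arrays were averaged, 1 model with 3 groups was fitted (residual degrees of freedom 3, prior 3.07), and p-values were adjusted by Benjamini-Hochberg over all probes per contrast. The annotation gave 30113 probes 1 symbol, 8 several and 17202 none in the table used. A gene outside the members is shown by its brightest probe, and other probes of named genes are given where their calls or sign differ. Differences are on the offset scale, which understates changes of dim probes, and the number of arrays limits precision.

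The members and lists were chosen with earlier results of these data known. Named were all member probes and, per list and contrast, the called genes that changed most. Others, such as PTGFRN, PTGER3 and genes not detected, were named after their values were seen. Deviations of samples with the same biological number correlated at -0.006 to 0.016 between groups, so the numbers were not treated as pairs. By technical number the correlations were higher, at 0.045 to 0.063. Alternatives covered scaling, offset, filter, technical arrays, replicate block and left-out replicates. Averaging by technical number, alone and blocked, and a random block were chosen after seeing the data. Figures used Python 3.11.15 and matplotlib 3.10.9.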

Additional observations from a re-analysis of the deposited data

Results flagged for a closer look

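In 10 of the 111 groups of 4 arrays examined, 1 array stood apart from the other 3 by more than Dixon's 95% limit, which chance alone passes in about 1 of 20 groups. Among members, PTGES2 probe 1 had a VEC array at 10.45 (others 10.19 to 10.23) and a CYT2 array at 9.69 (others 9.93 to 9.95). PTGES2 probe 2 had a VEC array at 9.97 (others 9.66 to 9.71). PTGS2 probe 2 had a CYT1 array at 8.11 (others 8.37 to 8.38), and PTGES3 a CYT1 array at 10.02 (others 10.37 to 10.40). PTGER2 had a CYT2 array at 7.52 (others 7.79 to 7.84). AKR1C2 had a VEC array at 11.07 (others 11.28 to 11.30) and a CYT1 array at 12.14 (others 12.49 to 12.53). SLCO3A1 had a CYT1 array at 8.15, above its other 3 arrays, and PRKAR2A a VEC array at 7.67, below its other 3 arrays.

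SLCO2A1 lay on opposite sides of VEC in the ICD lines on all arrays, with a CYT2 minus CYT1 difference of 1.04. The gene was chosen for this pattern, so the difference is given as a description and its p-value is not used.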

How the results depend on the processing

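Of 17 alternative settings, none turned the direction of a called result. All 46 called differences of the 26 genes outside the members that the naming rule took kept their sign in every setting, and 23 kept their call in every setting. Calls of PTGER2, PTGFR, FADS2 and PLA2G12A are among the 46, with a direction largely set by the filter. Without a detection filter, called members numbered 3 in CYT1 against VEC and 0 between the forms, and 2 probes were called between the forms. With technical arrays 1 alone, members called against VEC were 3 (CYT1) and 2 (CYT2), pathway genes 16 and 13, probes 3720 and 2972. With technical arrays 2 alone, members were 2 and 2, probes 3931 and 2937, and pathway genes in CYT2 17. Between CYT2 and CYT1 these settings called 0 members each, and 1 and 2 probes. Left-out replicates gave 2 to 5 members, 16 to 27 pathway genes and 3969 to 5688 probes in CYT1, 2 to 4, 14 to 25 and 3020 to 4921 in CYT2, and 0 members and 0 to 3 probes between the forms. A replicate left out leaves a lone sample, assumed to vary like the other groups. In CYT2, median scaling and the deposited log2 values each called 9 members.

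Between the forms, against 82 probes and 0 pathway genes, quantile scaling called 994 and 4, median scaling 963 and 5, the deposited values 706 and 3 and an offset of 50 482 and 2. The replicate block by biological number called 2 probes and 0 members between the forms and moved no count against VEC by over 1.5 times. Averaging by technical number called 23 probes and 0 members, and with that number as replicate block 0 and 0. A random block on 12 arrays called 1094 probes and 4 pathway genes, with an estimated correlation of -0.144. The causes of these shifts were not tested. Dim probes (HPGD and PTGFR) are limited by signal over background.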
